A study of Rattus norvegicus with 22 samples.

Results

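The collagen chain genes of rat fat are described here: every gene of the deposited table whose name reads Col, a number, the letter a and a number. This rule took 41 of the 24286 genes and used no measured value. Of these, 10 encode fibrillar chains, 6 encode the type IV chains of basement membranes, and 25 encode other collagens. Col1a2, Col6a3, Col21a1 and Col25a1 were not analysed here.

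Collagens are triple helices of 3 chains, and a chain gene therefore reports on only a share of a molecule. Fibrillar collagens (types I, II, III, V, XI, XXIV and XXVII) form the fibres of the interstitial matrix. Type IV collagen forms the sheet-like network of basement membranes, which surround every adipocyte and line every vessel. Among the others, type VI forms beaded filaments and is abundant around adipocytes, types IX, XII and XIV bind to fibril surfaces, types XV and XVIII sit at the basement membrane zone, and types XIII, XVII and XXIII cross the cell membrane. In fat, collagen is made mostly by stromal cells, and endothelial cells and adipocytes also make type IV chains.

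RNA-seq was run on 22 fat libraries from rats labelled WT in genotype and HFD (high-fat diet) in treatment, all with titles that give 4 months. The protocol text attached to all samples also names streptozotocin at 30 mg/kg, a toxin of insulin-producing cells, and the bypass operation. The groups were visceral fat of the mesentery after duodenal-jejunal bypass (visceral DJB, n = 6), visceral fat of type 2 diabetic rats (visceral T2DM, n = 6), subcutaneous fat of the groin after bypass (subcutaneous DJB, n = 5) and subcutaneous fat of type 2 diabetic rats (subcutaneous T2DM, n = 5). The labels name no healthy and no sham-operated group, and nothing in them says that replicates are different rats. The p-values below thus reflect only how far these libraries scatter, part of which may be technical. The comparisons ask how collagen transcripts differed after bypass in each depot, and between depots.

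Total counts per library were 46824314 to 88829000. Scaling factors (TMM) ran from 0.543 to 1.39, with the lowest in visceral T2DM libraries 2 and 5 (0.543 and 0.653) and visceral DJB library 2 (0.693). Adipocyte markers (8 genes summed) were at 5334 to 10658 FPKM in visceral DJB, 8469 to 26267 in visceral T2DM, 209 to 13803 in subcutaneous DJB and 1424 to 4189 in subcutaneous T2DM; the 209 was library 2 of subcutaneous DJB. FPKM scales fragments by transcript length and library size, so it can be compared between genes. Markers of mammary and skin epithelium (10 of 10 genes in the table, summed) were at 8.20 to 411 FPKM in visceral DJB and 201 to 1432 FPKM in visceral T2DM. The same sum was 14091, 3766, 536, 55631 and 5866 FPKM in subcutaneous DJB libraries 1 to 5 and 67567, 73424, 63588, 135130 and 415 FPKM in subcutaneous T2DM libraries 1 to 5. Urothelial markers were at 567, 1261 and 746 FPKM in visceral T2DM libraries 2, 3 and 4, at 29.2 FPKM in library 1, and at or below 6.64 FPKM in all others. Results below are therefore also given without such libraries where that ends a call, turns a direction or moves a value by over 1.5 times. In bulk fat, fewer cells of a type and less RNA per cell cannot be told apart.

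Promoter sequences are shown for some members for which RefSeq (build GRCr8) gave an entry. They are the bidirectional type IV start region, whose genes passed no test below, and Col9a2 and Col27a1, which differed between depots in T2DM. Of the 41 members, 33 had an entry, and Col1a1, Col3a1 and Col9a3 were among those without one. Col4a1 and Col4a2 start 76 bases apart and are transcribed away from each other, as are Col4a3 and Col4a4 (412 bases apart) and Col4a5 and Col4a6 (1414 bases apart). The region between the Col4a2 and Col4a1 starts lies at chr16:84885521-84885596, and the 250 bases before the starts of Col9a2 and Col27a1 at chr5:139892548-139892797 and chr5:81662658-81662907. All 3 are written on the plus strand, 5′ to 3′, and capitals mark matches to the motifs named next.
Col4a2-Col4a1 interval: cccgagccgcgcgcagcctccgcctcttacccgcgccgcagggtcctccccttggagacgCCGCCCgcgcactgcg
Col9a2: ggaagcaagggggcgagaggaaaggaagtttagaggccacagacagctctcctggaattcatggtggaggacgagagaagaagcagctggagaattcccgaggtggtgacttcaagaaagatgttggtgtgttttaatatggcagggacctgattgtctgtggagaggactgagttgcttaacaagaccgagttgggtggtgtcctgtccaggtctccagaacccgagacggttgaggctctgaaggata
Col27a1: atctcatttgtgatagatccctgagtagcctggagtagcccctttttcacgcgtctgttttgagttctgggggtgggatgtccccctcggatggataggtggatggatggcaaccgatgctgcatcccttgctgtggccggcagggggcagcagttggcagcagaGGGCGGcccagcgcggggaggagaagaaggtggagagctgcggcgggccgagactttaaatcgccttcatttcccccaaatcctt

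Motifs were searched on both strands in the bases before the start: the CCAAT box (CCAAT), the GC box (GGGCGG), the TATA box (TATAAA) and a SOX core (AACAAT). The type IV interval held 1 GC box. Over 76 bases, 19.3% of all 27457 promoters held a GC box. Col27a1 held 1 GC box in its 250 bases, as did 32.4% of all promoters, and Col9a2 held none of the 4 motifs. Over the 250 bases, 19 of 33 collagen promoters held a GC box, 10 a CCAAT box (34.3% of all promoters), 3 a TATA box (13.1%) and 2 a SOX core (10.3%). These matches describe letters only.

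Col3a1, the chain of type III collagen, was the most abundant member, with a mean of 566 FPKM over the 22 libraries. Col1a1, a chain of type I collagen, followed at 382 FPKM, then the type IV chain Col4a1 (165 FPKM), the type VI chains Col6a2 (149) and Col6a1 (148), and Col4a2 (98.3). Next came Col5a2 (41.6 FPKM), Col14a1 (38.6), Col18a1 (35.9), Col15a1 (31.2), Col5a3 (30.7) and Col5a1 (24.9). The other members averaged 6.66 FPKM or less, down to Col10a1 at 0.0152 FPKM, which had no count in 16 libraries.

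The summed level of all 41 members was 899 to 2362 FPKM in visceral DJB (median 1399), against 276 to 2190 FPKM in visceral T2DM (median 714). In subcutaneous fat it was 232 to 6765 FPKM in DJB (median 939), against 533 to 9409 FPKM in T2DM (median 1774). The groups overlapped in both depots. The collagens took a median of 0.721% of all counts in visceral DJB, 0.379% in visceral T2DM, 0.502% in subcutaneous DJB and 0.926% in subcutaneous T2DM, and the highest share was 5.07% in subcutaneous T2DM library 5.

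The composition of the collagen pool also varied by group and by library. Fibrillar chains made up a median of 33.9% of the summed collagen FPKM in visceral DJB, 40.5% in visceral T2DM, 42.7% in subcutaneous DJB and 60.9% in subcutaneous T2DM. Type IV chains made up a median of 29.9% in visceral DJB, 24.7% in visceral T2DM, 16.8% in subcutaneous DJB and 14.1% in subcutaneous T2DM. Library 5 of subcutaneous T2DM had 86.7% fibrillar chains and library 1 of subcutaneous DJB had 76.7%. Col3a1 or Col1a1 was the highest member in 17 of the 22 libraries, and Col4a1 was the highest in visceral DJB libraries 4, 5 and 6, visceral T2DM library 3 and subcutaneous DJB library 5.

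**Figure D1:**
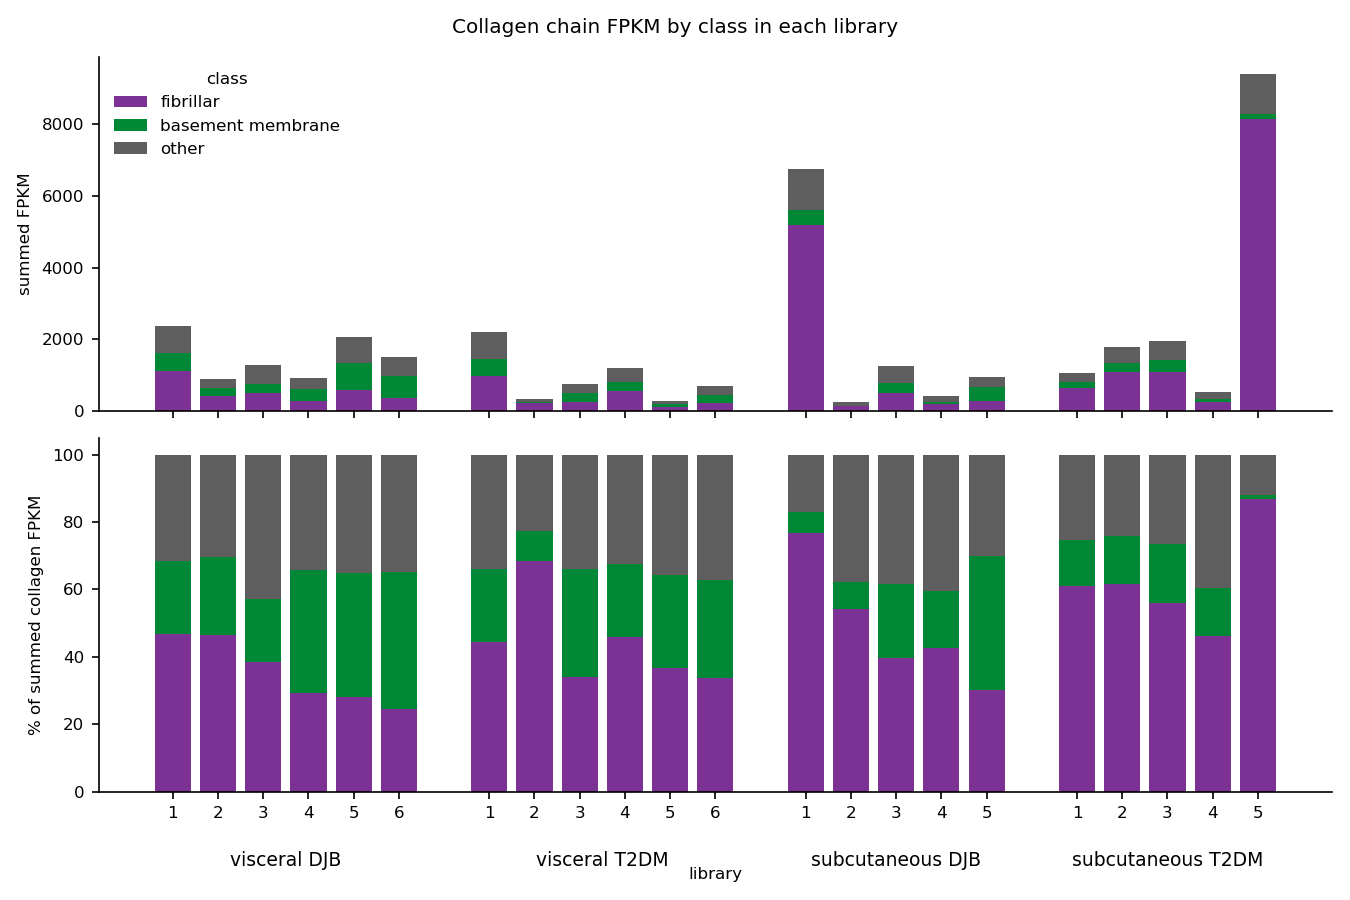
Summed FPKM of the 41 collagen chain genes per library, stacked by class (upper panel), and each class as a percent of that sum (lower panel), for visceral DJB, visceral T2DM, subcutaneous DJB and subcutaneous T2DM. The tallest bars are subcutaneous T2DM library 5 (9409 FPKM) and subcutaneous DJB library 1 (6765 FPKM), both mostly fibrillar.

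Of the 41 members, 27 passed the filter for testing (at least 1 FPKM in at least 5 libraries): 6 fibrillar, 5 type IV and 16 other chains. Just inside were Col9a2 with 5 libraries, Col4a3 with 6 and Col9a3 with 9, and just outside were Col6a5 and Col23a1 with 4 libraries each and Col22a1 and Col2a1 with 3 each. Col9a2 (5 libraries), Col9a3 (9 libraries) and Col13a1 (10 libraries) passed only through subcutaneous libraries, none of their visceral values reaching 1 FPKM, so the filter let them in for being high in that depot and their depot differences are not independent of it. The 14 members not tested were Col11a2, Col6a5, Col23a1, Col22a1, Col20a1, Col4a6, Col2a1, Col11a1, Col19a1, Col6a4, Col24a1, Col26a1, Col9a1 and Col10a1.

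After bypass, no collagen chain gene passed the test in visceral fat: 0 of the 27 tested had an adjusted p under 0.05 (edgeR), against 4.69% of all 14019 genes tested (0.421% higher and 4.27% lower). DESeq2 called 2 members, Col18a1 and Col27a1, and 1459 of all 14019 genes, and limma called no member. At an unadjusted p under 0.05 there were 4, against 22.2% of all genes: Col18a1, Col27a1 and Col8a1 were higher in DJB (5.71% of all genes) and Col17a1 was lower (16.4%). The fitted log2 change, DJB minus T2DM, was above 0 for 23 of 27 members, against 48.0% of all genes, with a median of 0.70 against -0.03 over all genes tested. Without visceral T2DM libraries 2 and 5, which had the lowest scaling factors, it was above 0 for 18 of 27, with a median of 0.30. On the TMM scale, for no member were the 6 DJB libraries all above or all below the 6 T2DM libraries; 0.521% of all genes were higher in every DJB library and 0.485% lower in every one.

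The fibrillar chains of visceral fat overlapped widely between groups. Col3a1 was at 120 to 725 FPKM in visceral DJB (median 299.7), against 54.4 to 651 FPKM in visceral T2DM (median 172); the log2 change was 0.29 ± 0.85 (SE; edgeR, adjusted p = 0.873), and -0.06 without DJB library 1. For Col1a1 the levels were 38.02 to 218 FPKM in visceral DJB (median 75.2) and 18.1 to 154 FPKM in visceral T2DM (median 39.6), a log2 change of 0.72 ± 0.96 (edgeR, adjusted p = 0.705). In both genes the ranges overlapped widely, and the standard error exceeded the change. The type V chains, which join type I fibrils and limit their width, lay lower: Col5a2 was at 22.5 to 47.1 FPKM in visceral DJB and 5.53 to 67.9 FPKM in visceral T2DM, a log2 change of 0.34 ± 0.63 (edgeR, adjusted p = 0.791). Col5a3 was at 25.1 to 73.3 FPKM in visceral DJB (median 43.8) and 3.21 to 48.9 FPKM in visceral T2DM (median 30.2), with a log2 change of 0.79 ± 0.65 (edgeR, adjusted p = 0.502).

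Col27a1, a fibrillar chain best known from cartilage, had the smallest p of its class. It was at 1.22 to 3.18 FPKM in visceral DJB (median 2.05), against 0.0734 to 1.49 FPKM in visceral T2DM (median 0.968). Library 2 of visceral DJB lay within the T2DM range, and library 6, at 1.49 FPKM, stood level with its top. The change was 1.48 ± 0.50 on the log2 scale, or 2.80-fold, and did not pass the test (edgeR, adjusted p = 0.0825).

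None of the type IV chains passed the test. Col4a1 and Col4a2 had a higher median FPKM in visceral DJB than in visceral T2DM, and the other 4 a lower one. Col4a1 was at 139 to 483 FPKM in visceral DJB (median 249.9), against 21.5 to 270 FPKM in visceral T2DM (median 135), with a log2 change of 1.10 ± 0.54 (edgeR, adjusted p = 0.240). Its partner Col4a2 was at 63.8 to 265 FPKM in visceral DJB (median 158) and 4.13 to 182 FPKM in visceral T2DM (median 72.0), with a log2 change of 1.06 ± 0.62 (edgeR, adjusted p = 0.328). Libraries 5 and 6 of visceral DJB were the highest of all 22 for Col4a1, at 483 and 391 FPKM. The same 2 libraries held 699 and 576 FPKM of Serpinh1, the chaperone of collagen folding, against 127 to 219 FPKM in the other visceral DJB libraries. Of the 5 tested type IV chains, 4 had a log2 change above 0, with a median of 0.10; with 1 library left out this median ran from -0.28 (without DJB library 1) to 0.80 (without T2DM library 1).

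Among the other chains, Col18a1, whose carboxy-terminal fragment is endostatin, was at 34.7 to 80.9 FPKM in visceral DJB (median 56.9), against 7.45 to 50.6 FPKM in visceral T2DM (median 19.3). Of the T2DM libraries, 1 and 4 (50.6 and 36.4 FPKM) reached into the DJB range. The log2 change was 1.21 ± 0.40, or 2.32-fold (edgeR, adjusted p = 0.0800). Without visceral T2DM library 1 both Col18a1 (edgeR, adjusted p = 0.0169) and Col27a1 (edgeR, adjusted p = 0.0338) passed. In that fit 1744 of all 14019 genes passed.

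Col8a1, a short-chain collagen made by vessel-wall cells, was at 3.56 to 16.7 FPKM in visceral DJB (median 10.2), against 0.379 to 10.2 FPKM in visceral T2DM (median 2.91), with a log2 change of 1.39 ± 0.66 (edgeR, adjusted p = 0.219), and 2.01 without T2DM library 1. The type VI chains stood at similar levels to each other. Col6a1 was at 78.9 to 285 FPKM in visceral DJB and 20.5 to 289 FPKM in visceral T2DM (log2 change 0.72 ± 0.59; edgeR, adjusted p = 0.501). Col6a2 was at 102 to 265 FPKM in visceral DJB and 30.7 to 232 FPKM in visceral T2DM (log2 change 0.88 ± 0.53; edgeR, adjusted p = 0.339). Against this direction, Col14a1, a fibril-surface collagen of fibroblasts, was at 7.27 to 21.1 FPKM in visceral DJB and 2.69 to 73.2 FPKM in visceral T2DM (log2 change -0.56 ± 0.78; edgeR, adjusted p = 0.716). Its medians, 16.3 FPKM in DJB and 16.2 FPKM in T2DM, were nearly equal, and the 73.2 FPKM was T2DM library 1 alone, without which the log2 change was 0.31.

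Between the visceral groups, endothelial markers moved in the same direction as Col4a1, Col4a2 and Col18a1. Their sum (7 of 8 genes in the table) was 345 to 660 FPKM in visceral DJB and 116 to 455 FPKM in visceral T2DM. Of these, 6 of 6 tested had a log2 change above 0, with a median of 1.03 and none past the test. Visceral DJB libraries 5 and 6, the highest for Col4a1, had endothelial sums of 345 and 377 FPKM, against 366 to 660 FPKM in the other visceral DJB libraries. Stromal and fibroblast markers (9 of 10 genes) summed to 576 to 966 FPKM in visceral DJB and 291 to 1108 FPKM in visceral T2DM. Adipocyte markers had a lower median in visceral DJB, 6858 FPKM, against 11972 FPKM in visceral T2DM. The part of these cells in the collagen values was not tested. The tested collagens had a median transcript length 2.38 times that of the median tested gene, and in visceral T2DM libraries 2 and 5 longer genes had lower values (Spearman rho across genes of -0.51 and -0.38, a description with no p). With a length trend removed from each library, the collagen median was 0.52.

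**Figure D2:**
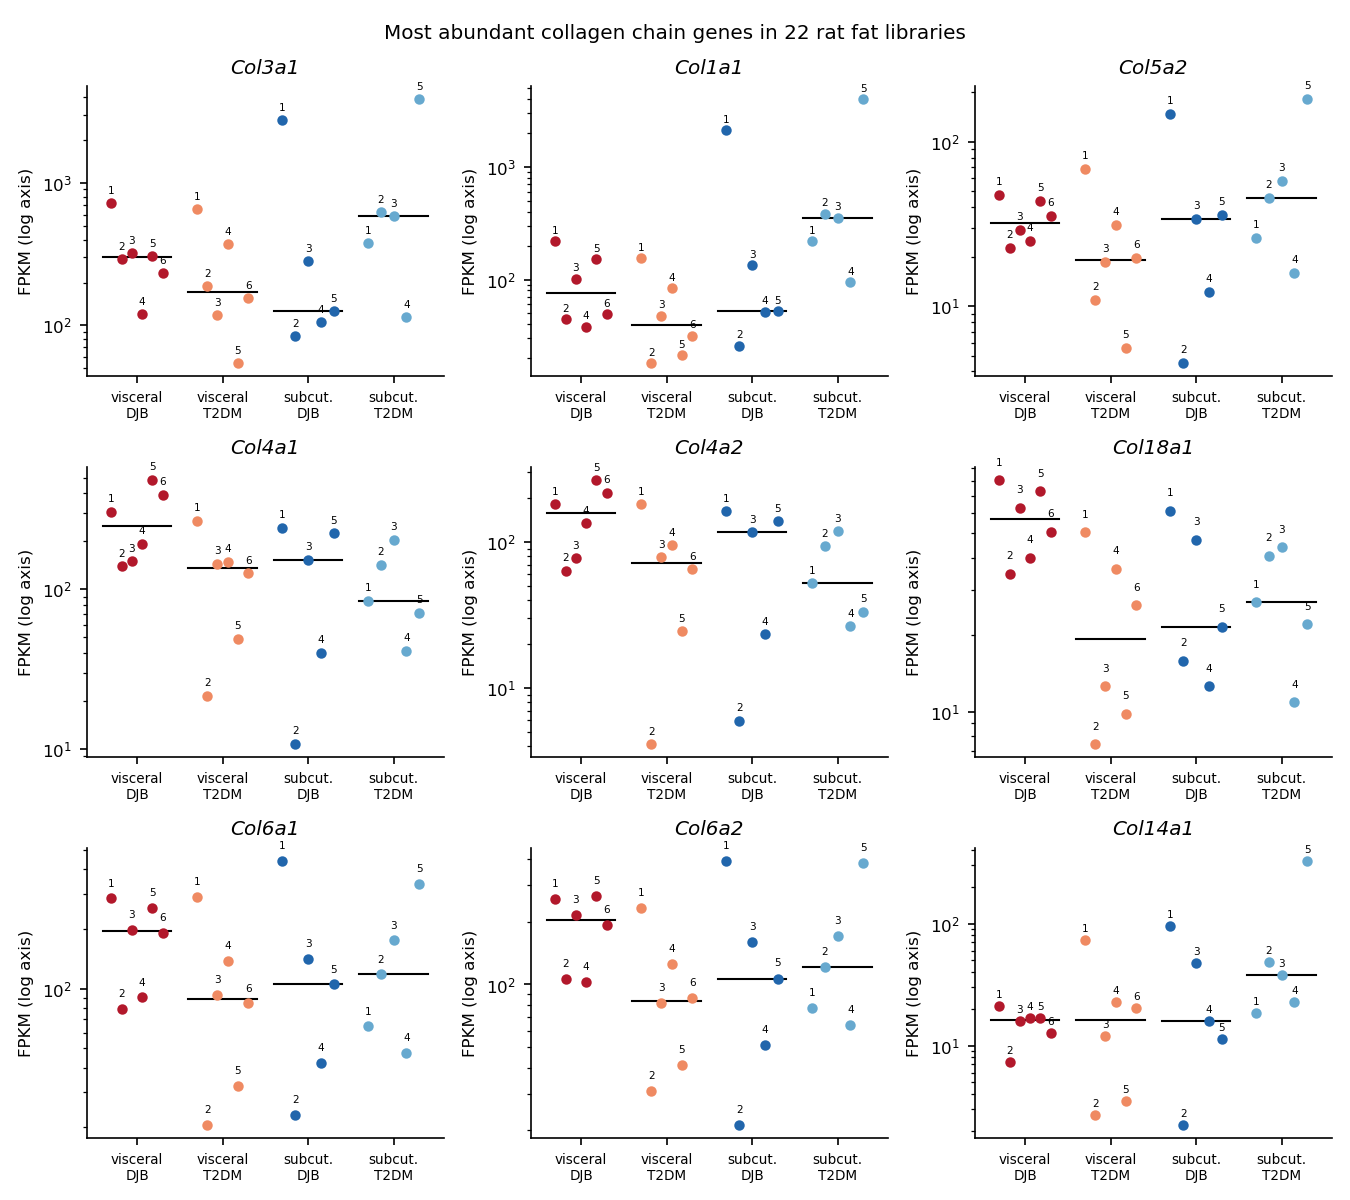
FPKM (log axis) of the 9 most abundant named members in each library of visceral DJB, visceral T2DM, subcutaneous DJB and subcutaneous T2DM; lines are group medians and numbers are libraries. Col18a1 separates visceral DJB (34.7 to 80.9 FPKM) from all but 2 of the visceral T2DM libraries, and single subcutaneous libraries stand far above the rest for Col3a1 and Col1a1.

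In subcutaneous fat, 0 of 27 members passed the test after bypass (edgeR), as did 0% of all 14019 genes. At an unadjusted p under 0.05 there were 0 members, against 8.98% of all genes, and neither DESeq2 nor limma called a member. Over all 14019 genes DESeq2 called 168 and limma 0. The log2 change was above 0 for 9 of 27 members, against 55.2% of all genes, with a median of -0.16 against 0.05 over all genes. This direction rested on single libraries: without T2DM library 5 it was above 0 for 17 of 27 (median 0.13), without DJB library 2 for 15 (median 0.08), without DJB library 1 for 6 (median -0.83) and without T2DM library 4 for 6. For no member did the groups not overlap; 0.399% of all genes were higher in every DJB library and 0.913% lower in every one.

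Col3a1 was at 2745, 84.7, 284, 106 and 125 FPKM in subcutaneous DJB libraries 1 to 5, against 376, 624, 588, 115 and 3868 FPKM in subcutaneous T2DM libraries 1 to 5. Col1a1 was at 2122, 25.8, 134, 51.7 and 52.1 FPKM in the DJB libraries and at 218, 382, 355, 94.9 and 4005 FPKM in the T2DM libraries. DJB library 1 and T2DM library 5 lay several times above every other library in both genes, and the groups overlapped. The log2 changes, DJB minus T2DM, were -0.77 ± 0.93 for Col3a1 (edgeR, adjusted p = 0.911) and -1.13 ± 1.06 for Col1a1 (edgeR, adjusted p = 0.870). Without T2DM library 5 they were 0.64 for Col3a1 and 0.84 for Col1a1, and without DJB library 1 they were -2.80 and -3.86.

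The same 2 libraries were highest for Col5a2, at 147, 4.50, 33.7, 12.1 and 35.6 FPKM in subcutaneous DJB and 25.9, 45.3, 57.7, 15.8 and 181 FPKM in subcutaneous T2DM. Col14a1 was at 96.3, 2.23, 47.3, 15.8 and 11.4 FPKM in DJB and at 18.5, 48.2, 38.05, 22.9 and 324 FPKM in T2DM. Its log2 change of -1.39 ± 0.87 (edgeR, adjusted p = 0.724) became 0.13 without T2DM library 5. The median of the fibrillar log2 changes was -0.46, 0.62 without T2DM library 5 and -1.57 without DJB library 1. The stromal and fibroblast marker sum was also highest in these 2 libraries, 1614 FPKM in DJB library 1 and 3025 FPKM in T2DM library 5, with group medians of 611 and 756 FPKM; its part in the collagen values was not tested.

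Type IV chains shared this in DJB library 1, the highest subcutaneous library for Col4a1 and Col4a2, and not in T2DM library 5. Col4a1 was at 244, 10.7, 152, 39.8 and 224 FPKM in subcutaneous DJB and at 85.1, 142, 204, 41.1 and 71.6 FPKM in subcutaneous T2DM, with a log2 change of 0.32 ± 0.59 (edgeR, adjusted p = 0.961). Col4a2 was at 162, 5.99, 117, 23.5 and 139 FPKM in DJB and at 52.1, 94.3, 118, 26.5 and 33.4 FPKM in T2DM, with a log2 change of 0.48 ± 0.67 (edgeR, adjusted p = 0.931). Library 2 of DJB was the lowest subcutaneous library for both, as it was for Col3a1, Col1a1, Col5a2, Col6a1, Col6a2 and Col14a1. It was also the library with 209 FPKM of adipocyte markers.

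Col5a3 was at 54.1, 2.47, 19.9, 4.42 and 55.6 FPKM in subcutaneous DJB and at 8.21, 12.5, 49.1, 4.76 and 6.40 FPKM in subcutaneous T2DM. T2DM library 5, the highest for Col3a1, Col1a1 and Col5a2, was low for this one. Its log2 change was 0.79 ± 0.71 (edgeR, adjusted p = 0.864), and 1.75 without T2DM library 3. Col18a1 was at 61.4, 15.8, 47.3, 12.6 and 21.5 FPKM in DJB and at 26.8, 40.8, 44.2, 10.9 and 21.97 FPKM in T2DM, and the log2 change was 0.17, turning to -0.17 without DJB library 1.

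The test of whether the bypass difference itself differed between depots called 0 of 27 members (edgeR), as it did 0% of all genes. At an unadjusted p under 0.05 it gave 1, Col27a1, against 14.0% of all genes, with a difference in log2 change, visceral minus subcutaneous, of 1.91 ± 0.73 (edgeR, adjusted p = 0.271). DESeq2 and limma called no member. Over all 14019 genes DESeq2 called 123 and limma 0. For Col8a1 this difference was 2.01 ± 0.97 (edgeR, adjusted p = 0.364) and for Col4a1 0.77 ± 0.79 (edgeR, adjusted p = 0.724). It was above 0 for 22 of 27 members, against 45.6% of all genes. The count was 17 without subcutaneous T2DM library 5 and 17 without visceral T2DM libraries 2 and 5. In limma, run on FPKM without TMM scaling, the count was 26 with 1 added and 27 with 0.1 added. The share of all genes above 0 is not given for those fits, so these counts cannot be set against 45.6%. Under TPM scaling, also without TMM, the count was 22 and the median of all genes moved by 0.35.

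**Figure D3:**
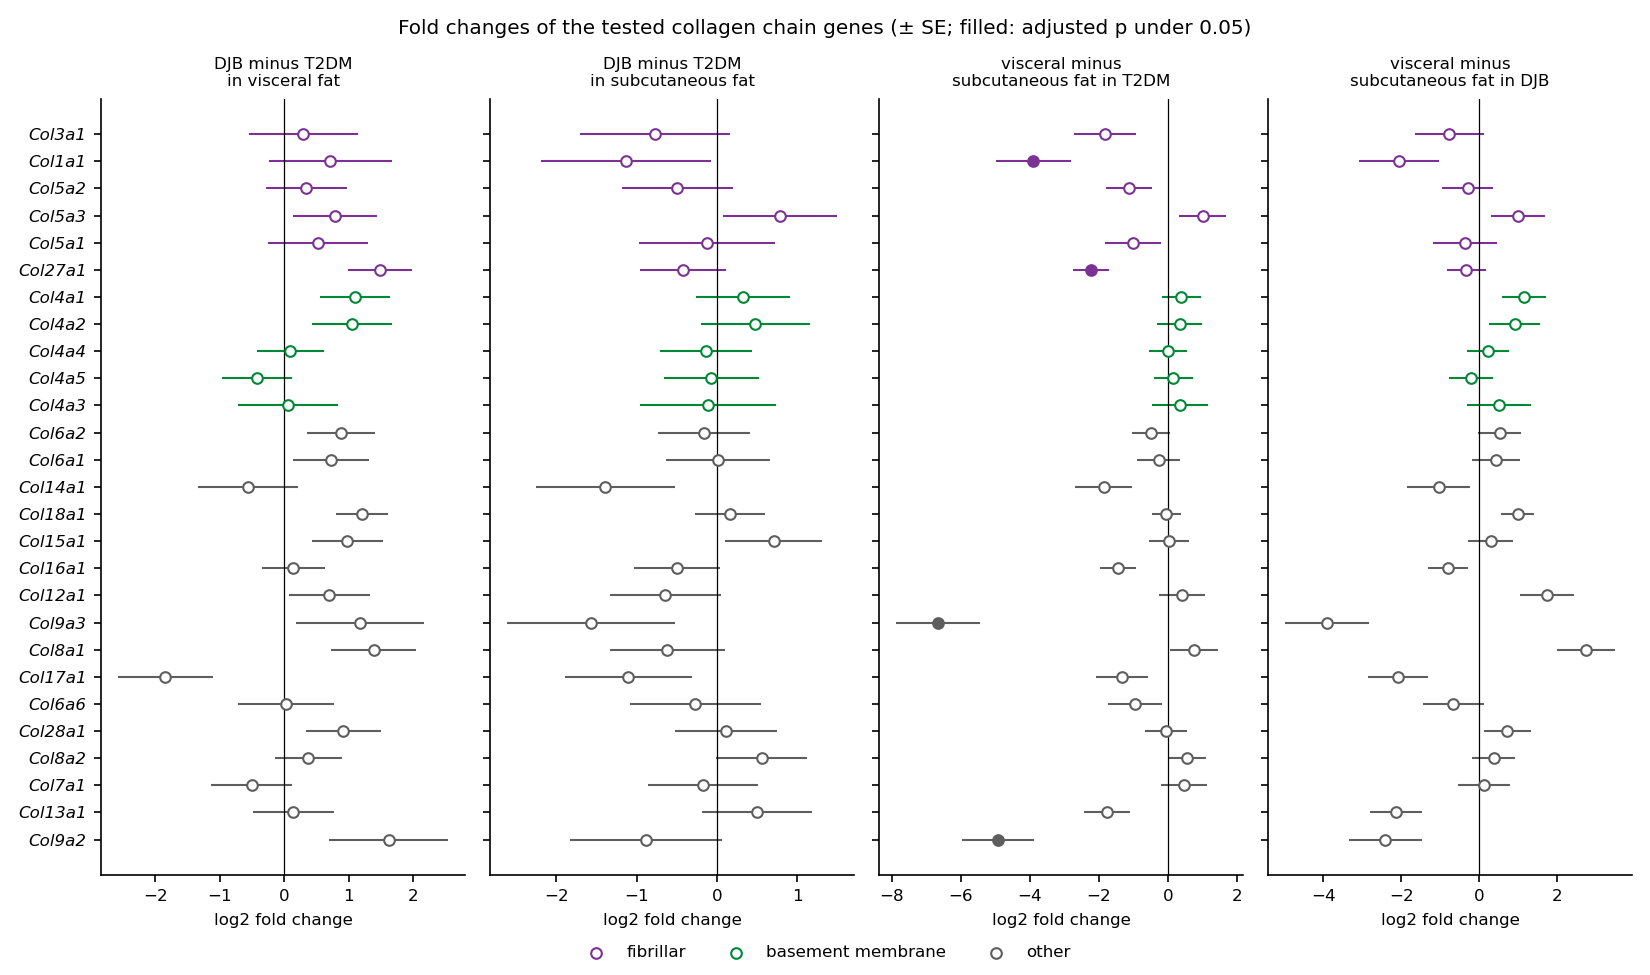
Log2 fold change with its standard error for the 27 tested members in 4 contrasts: DJB minus T2DM in visceral and in subcutaneous fat, and visceral minus subcutaneous fat in T2DM and in DJB. Filled points have an adjusted p under 0.05 (edgeR), and the 4 filled points, all in the T2DM depot contrast, are Col9a3, Col9a2, Col27a1 and Col1a1.

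Between depots, 4 collagen chain genes were lower in visceral T2DM than in subcutaneous T2DM fat: Col9a3, Col9a2, Col27a1 and Col1a1. This is 4 of 27 tested, against 8.72% of all genes, and 4 lower against 3.28% of all genes called lower. Col9a3 and Col9a2 passed the filter only through subcutaneous libraries, so their calls are not independent of it. No member was called higher, against 5.44% of all genes. At an unadjusted p under 0.05 there were 7, against 24.6%. The log2 change, visceral minus subcutaneous, was above 0 for 11 of 27, against 51.3% of all genes. It was above 0 for 5 of 27 without visceral T2DM library 1, 5 under TPM scaling, 6 with a replicate block, 6 and 4 in limma with 1 and 0.1 added, and 14 without visceral T2DM libraries 2 and 5. The 51.3% comes from the fit with all libraries, TMM scaling and no block. TPM scaling moved the median of all genes by -0.47, and limma used FPKM without TMM. The TPM and limma counts therefore cannot be set against the 51.3%. The fibrillar chains had a median of -1.48, the type IV chains 0.34, the others -0.39 and all genes 0.02. Without subcutaneous T2DM library 5 the fibrillar median was -0.34, and without visceral T2DM library 1 the fibrillar median was -2.07 and the type IV median -0.17.

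The type IX chains, which decorate type II collagen fibrils in cartilage, had the largest depot difference in T2DM among the members that passed the filter. With no filter Col2a1 was also called, with a fitted log2 change of -10.97 (edgeR, adjusted p = 0.00885) against visceral T2DM libraries that were all at 0. Col9a3 was at 0 to 0.355 FPKM in visceral T2DM (median 0.139), against 22.7, 20.3, 11.8, 26.2 and 0.273 FPKM in subcutaneous T2DM libraries 1 to 5. The first 4 subcutaneous libraries lay far above every visceral library, and library 5 lay within the visceral range. The log2 change was -6.66 ± 1.22, a 101-fold difference (edgeR, adjusted p = 0.00296), and with any 1 library left out the adjusted p was at most 0.00874 (edgeR). As said above, Col9a3 and Col9a2 entered the test only through subcutaneous libraries. Col9a2 was at 0 to 0.110 FPKM in visceral T2DM (median 0.0271), against 1.16, 2.23, 1.02, 1.45 and 0.0792 FPKM in subcutaneous T2DM, a log2 change of -4.91 ± 1.04 or 30.1-fold (edgeR, adjusted p = 0.00664).

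In DJB fat the type IX chains differed in the same direction without passing the test. Col9a3 was at 0 to 0.602 FPKM in visceral DJB (median 0.283), against 6.56, 3.51, 1.34, 11.2 and 1.203 FPKM in subcutaneous DJB. Here every visceral library was below every subcutaneous library, and the log2 change was -3.91 ± 1.08 (edgeR, adjusted p = 0.0676). Col9a2 was at 0 to 0.168 FPKM in visceral DJB and 0.446, 0.345, 0.269, 1.44 and 0.189 FPKM in subcutaneous DJB (log2 change -2.40; edgeR, adjusted p = 0.218). Without subcutaneous DJB library 4 the log2 changes were -3.11 for Col9a3 and -1.40 for Col9a2. Within subcutaneous fat, the bypass difference of Col9a3 was -1.57 ± 1.05 on the log2 scale (edgeR, adjusted p = 0.756).

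The remaining cartilage collagens were low. Col2a1, the chain of type II collagen, had no count in 13 libraries. In visceral fat it was listed at 0 in all DJB libraries but library 5 (0.0142 FPKM, 4 counts) and in all T2DM libraries. In subcutaneous fat it was at 0.367, 0.0951, 0.0434, 0.920 and 0 FPKM in DJB and 1.22, 1.39, 0.291, 1.51 and 0 FPKM in T2DM. Col9a1, the third type IX chain, did not exceed 0.371 FPKM, and this value was in subcutaneous T2DM library 4. The Col9a3 to Col9a2 ratio of FPKM had a median of 7.82 in subcutaneous DJB and 11.6 in subcutaneous T2DM.

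The milk protein gene Csn1s1 moved with the type IX chains; the mammary and skin epithelium list as a whole did not move one way between depots in T2DM, with 3 of 10 genes called lower in visceral fat (3.28% of all genes), 4 of 10 above 0 and a median log2 change of -0.19. The summed level given above was mostly Csn1s1 in all but 4 libraries, with 134280 of 135130 FPKM in subcutaneous T2DM library 4. The sum was lowest among subcutaneous T2DM libraries in library 5 (415 FPKM), where Col9a3 was also lowest, and highest in library 4 (135130 FPKM), where Col9a3 was highest. In subcutaneous DJB the sum was highest in library 4 (55631 FPKM), where Col9a3 was also highest (11.2 FPKM). Without Csn1s1 the other 9 genes summed to 5.97 to 10.1 FPKM in visceral DJB and 5.74 to 1172 FPKM in visceral T2DM. They summed to 241, 79.4, 14.2, 785 and 186 FPKM in subcutaneous DJB and 631, 1523, 523, 853 and 8.83 FPKM in subcutaneous T2DM. The 1172 FPKM was visceral T2DM library 3, where Col9a3 was at 0.325 FPKM. Sox10 and Sox9, transcription factors that act on type IX and type II collagen genes in cartilage (Sox9) and on glial and some glandular cells (Sox10), followed the same libraries. Sox10 was at 0.163 to 1.52 FPKM in visceral fat, at 13.7, 3.12, 3.54, 31.5 and 6.34 FPKM in subcutaneous DJB and at 57.0, 57.4, 50.3, 117 and 0.646 FPKM in subcutaneous T2DM. Sox9 was at or below 0.233 FPKM in visceral fat, at 0.756, 0.467, 0.146, 3.47 and 1.25 FPKM in subcutaneous DJB and at 6.69, 3.00, 2.49, 7.52 and 0.0734 FPKM in subcutaneous T2DM. Both were lower in visceral T2DM than in subcutaneous T2DM fat, with log2 changes of -4.94 for Sox9 (edgeR, adjusted p = 0.00713) and -6.19 for Sox10 (edgeR, adjusted p = 0.000697).

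Aggrecan (Acan), the main cartilage proteoglycan, did not exceed 0.227 FPKM in any library. The 7 cartilage markers summed to 0.502 to 1.13 FPKM in visceral DJB, 0.281 to 0.846 FPKM in visceral T2DM, 0.771 to 4.24 FPKM in subcutaneous DJB and 0.399 to 8.06 FPKM in subcutaneous T2DM. The Schwann cell and nerve list, which holds Sox10, had median sums of 168 FPKM in visceral DJB, 239 in visceral T2DM, 163 in subcutaneous DJB and 160 in subcutaneous T2DM. The part of these cell types in the type IX values was not tested.

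**Figure D4:**
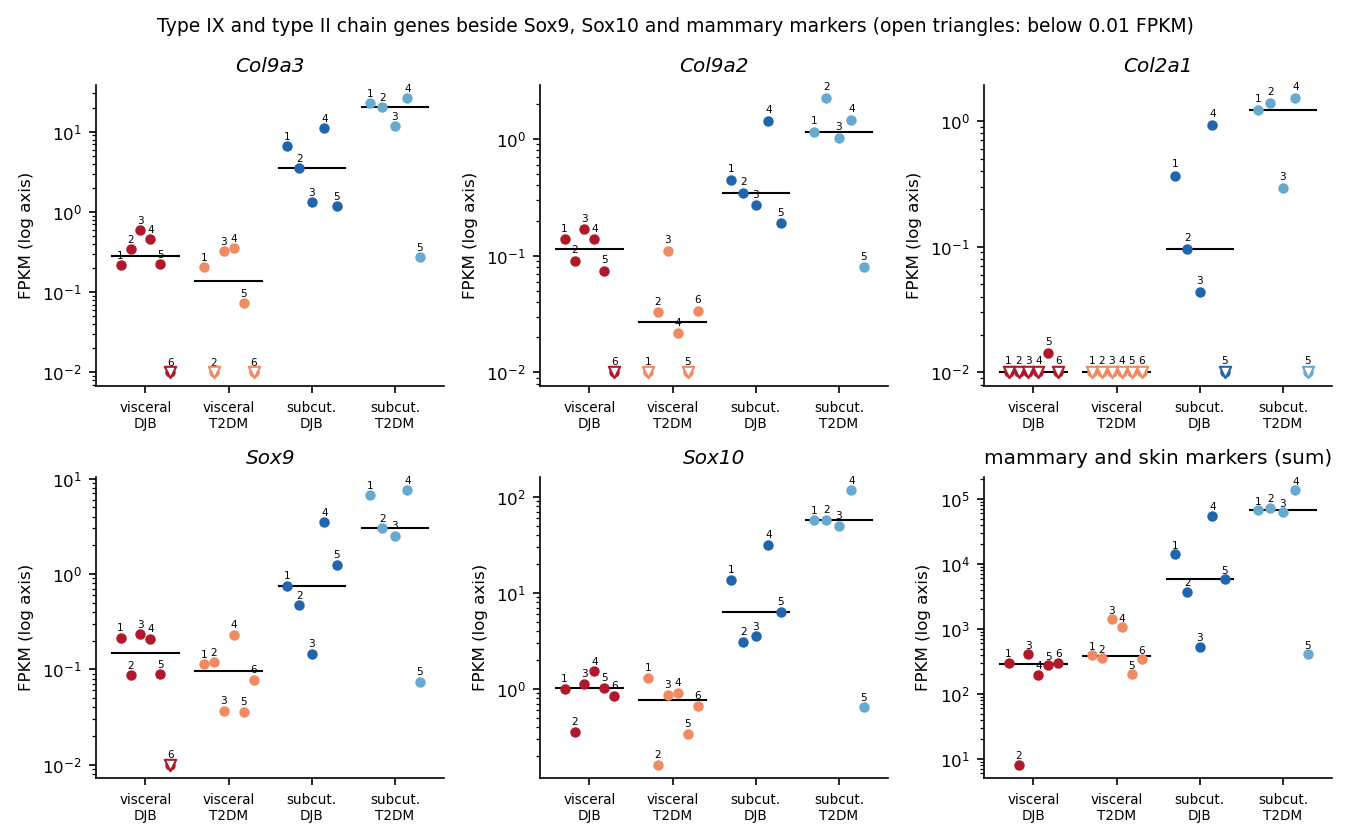
FPKM (log axis) of Col9a3, Col9a2, Col2a1, Sox9, Sox10 and the summed mammary and skin epithelium markers in each library of the 4 groups; open triangles are values below 0.01 FPKM. In each panel subcutaneous T2DM library 5 lies below the other 4 libraries of its group.

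The fibrillar Col27a1 was at 0.0734 to 1.49 FPKM in visceral T2DM (median 0.968), against 1.89, 3.54, 6.44, 7.03 and 1.74 FPKM in subcutaneous T2DM. Every visceral library was below every subcutaneous library. In this contrast that held for 2 members, Col27a1 and Col13a1, and for 1.95% of all genes. Col13a1 passed the filter only through subcutaneous libraries. No member was higher in every visceral library, against 2.56% of all genes. The log2 change of Col27a1 was -2.23 ± 0.52, a 4.70-fold difference (edgeR, adjusted p = 0.0116). Without visceral T2DM libraries 2 and 5 it was -1.79 (edgeR, adjusted p = 0.0534), and without libraries 2, 3 and 4, which had the highest urothelial markers, -2.05 (edgeR, adjusted p = 0.0601). In DJB fat its visceral range of 1.22 to 3.18 FPKM overlapped the subcutaneous values of 6.34, 2.40, 4.09, 1.35 and 1.07 FPKM.

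For Col1a1, the levels in visceral T2DM (18.1 to 154 FPKM) and subcutaneous T2DM (94.9 to 4005 FPKM) overlapped. The log2 change was -3.91 ± 1.09, a 15.0-fold difference (edgeR, adjusted p = 0.0297), and it rested on subcutaneous T2DM library 5: without it the log2 change was -1.94 (edgeR, adjusted p = 0.198). Without visceral T2DM library 2, 5 or 6 the adjusted p was 0.0641, 0.0619 and 0.0507 (edgeR). Col3a1, at 54.4 to 651 FPKM in visceral T2DM and 115 to 3868 FPKM in subcutaneous T2DM, had a log2 change of -1.83 ± 0.90 and did not pass (edgeR, adjusted p = 0.214). Col14a1 had a log2 change of -1.86 ± 0.82 (edgeR, adjusted p = 0.164). Without subcutaneous T2DM library 5 these were -0.41 for Col3a1 and -0.35 for Col14a1.

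The type IV chains did not differ detectably between depots in T2DM, with log2 changes of 0.39 for Col4a1 and 0.34 for Col4a2; all 5 tested chains had a value above 0. Without visceral T2DM library 1, Col4a2 was at -0.17. Under TPM scaling, which moves the median of all genes in this contrast by -0.47, Col4a1 lay just below 0, at -0.00039.

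In DJB fat, 0 of 27 members passed the depot test (edgeR), against 1.32% of all genes (0.228% higher and 1.09% lower). The log2 change was above 0 for 14 of 27, against 46.5% of all genes. At an unadjusted p under 0.05 there were 7, against 14.5% of all genes, of which Col8a1, Col18a1 and Col12a1 were higher in visceral fat (4.72% of all genes) and Col9a3, Col9a2, Col13a1 and Col17a1 lower (9.75%). limma called none and DESeq2 called 3: Col8a1 (DESeq2, adjusted p = 0.00192), Col9a3 (DESeq2, adjusted p = 0.00497) and Col13a1 (DESeq2, adjusted p = 0.0132). Over all 14019 genes DESeq2 called 719. Col8a1 was at 3.56 to 16.7 FPKM in visceral DJB (median 10.2), against 3.19, 0.0852, 2.43, 0.6251 and 1.55 FPKM in subcutaneous DJB. Every visceral library was above every subcutaneous one, as for 0.827% of all genes; the log2 change was 2.77 ± 0.75 (edgeR, adjusted p = 0.0635). Every visceral library was below every subcutaneous one for Col13a1 and Col9a3, as for 0.999% of all genes. Col13a1, Col9a3 and Col9a2 passed the filter only through subcutaneous libraries, so their differences here are not independent of it. Col1a1 had a log2 change of -2.06 ± 1.02 (edgeR, adjusted p = 0.366), which became 0.67 without subcutaneous DJB library 1. Col4a1 had one of 1.16 ± 0.58 (edgeR, adjusted p = 0.367). The fibrillar median was -0.34, and 0.94 without that library.

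Chains that join in 1 molecule were set side by side in each library. The FPKM ratio of Col6a1 to Col6a2 had a median of 0.969 over the 22 libraries and stayed between 0.667 and 1.25, while Col6a1 itself ran from 20.5 to 439 FPKM. The ratio of Col4a1 to Col4a2, which share the start region printed above, had a median of 1.71 and a range of 1.30 to 5.20; the 5.20 was visceral T2DM library 2, where Col4a2 was at 4.13 FPKM. For Col5a1 to Col5a2 the median was 0.569 and the range 0.0840 to 0.773. The ratio of Col1a1 to Col3a1, chains of different molecules, had medians of 0.307 in visceral DJB, 0.232 in visceral T2DM, 0.472 in subcutaneous DJB and 0.612 in subcutaneous T2DM. Col4a3 ran at a median of 0.131 times Col4a4.

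**Figure D5:**
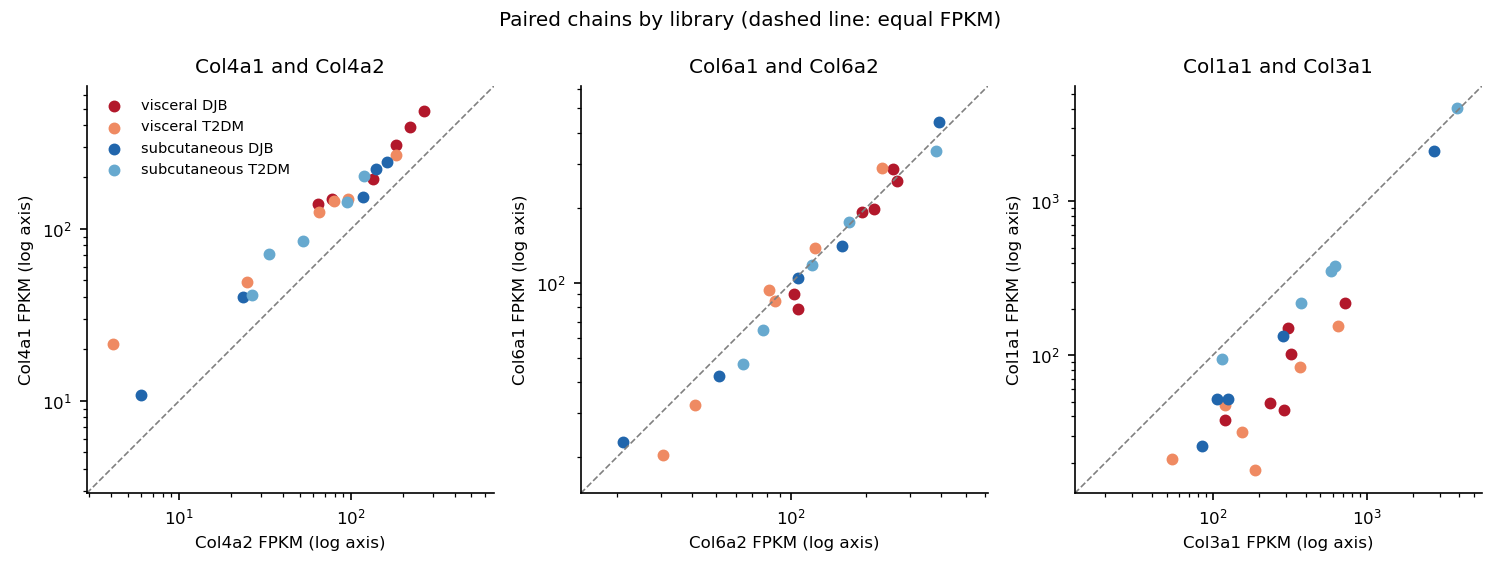
FPKM of Col4a1 against Col4a2, Col6a1 against Col6a2 and Col1a1 against Col3a1 in the 22 libraries (log axes; dashed line, equal levels). Type VI points lie along the line (ratio 0.667 to 1.25), type IV points to the Col4a1 side of it, and Col1a1 is below Col3a1 in all libraries but subcutaneous T2DM library 5.

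Among the less abundant members, given by their range, single libraries decided most of the spread. Visceral T2DM library 3 was the highest visceral library for Col7a1 (10.4 FPKM), the chain of the anchoring fibrils of epithelia, Col17a1 (10.3 FPKM), a hemidesmosome collagen, and Col11a2 (6.15 FPKM), Col20a1 (2.04 FPKM), Col4a6 (1.89 FPKM) and Col19a1 (1.29 FPKM). The urothelial marker sum was highest in the same library, at 1261 FPKM, and its part was not tested. Col17a1 was at 0.318 to 1.30 FPKM in visceral DJB and 0.173 to 10.3 FPKM in visceral T2DM (log2 change -1.85 ± 0.74; edgeR, adjusted p = 0.142). In subcutaneous fat Col17a1 was at 4.13, 2.54, 0.704, 8.23 and 1.30 FPKM in DJB and 11.8, 12.0, 6.30, 10.6 and 1.74 FPKM in T2DM. Its depot difference in T2DM, visceral minus subcutaneous, was -1.34 on the log2 scale (edgeR, adjusted p = 0.287). Without visceral T2DM libraries 2, 3 and 4 it was -3.27 (edgeR, adjusted p = 0.0422). Col13a1, a membrane-bound collagen, was at no more than 0.951 FPKM in any visceral library, against 1.13, 3.67, 1.77, 2.24 and 1.04 FPKM in subcutaneous DJB and 1.53, 2.22, 1.32, 1.45 and 1.22 FPKM in subcutaneous T2DM. Col12a1 was at 21.0 and 18.5 FPKM in visceral DJB libraries 5 and 6 and at 15.4 FPKM in visceral T2DM library 1, and at or below 7.61 FPKM in the other libraries. Col13a1, Col12a1, Col17a1 and Col7a1 were picked out after their values were seen.

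Genes that fold, process, bind or break down collagen were followed as lists. In visceral fat after bypass, 15 of 18 tested genes of collagen folding and modification had a log2 change above 0, with a median of 0.62 against -0.03 over all genes, and 0 passed the test (edgeR; 4.69% of all genes). Plod3, a lysyl hydroxylase that also adds sugars, had a log2 change of 0.63 ± 0.22 (edgeR, adjusted p = 0.0898), and P4hb, the beta subunit of prolyl 4-hydroxylase, one of 0.89 (edgeR, adjusted p = 0.0948). For processing and cross-linking, 9 of 10 were above 0, with a median of 0.59 and 0 called; Lox, which cross-links fibrils, had 1.92 (edgeR, adjusted p = 0.114). The fibril-binding proteins (9 of 13 above 0, median 0.16), receptors (5 of 8, median 0.22) and breakdown genes (7 of 12, median 0.06) also had 0 called. Of 12 basement membrane partners, 8 were above 0 (median 0.35) and 1 fell (4.27% of all genes), the epithelial laminin chain gene Lamb3, with a log2 change of -4.40 (edgeR, adjusted p = 0.0329). Of the urothelial markers, 6 of 6 were also called lower in this comparison (median log2 change -7.77). So were 7 of 10 mammary and skin epithelium markers (median -5.18), against 4.27% of all genes. Without visceral T2DM libraries 2, 3 and 4, highest in urothelial markers, 0 of all 14019 genes passed (edgeR). These calls and that of Lamb3 thus ended. Without Csn1s1 the other 9 mammary and skin genes summed to 229, 1172 and 681 FPKM in those libraries. In visceral T2DM libraries 1, 5 and 6 they summed to 31.7, 5.74 and 9.51 FPKM. Csn1s1 was at 0.388 to 401 FPKM in visceral DJB and 126 to 373 FPKM in visceral T2DM. The part of these tissues was not tested.

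In subcutaneous fat after bypass none of these lists had a gene called, and their medians were -0.36 for folding, -0.20 for processing, -0.50 for fibril-binding proteins, 0.00 for receptors, -0.12 for breakdown and -0.08 for basement membrane partners. Between depots in T2DM, 1 of 18 folding genes was higher in visceral fat, near the 5.44% of all genes called higher: Plod2, a lysyl hydroxylase, with a log2 change of 2.50 ± 0.64 (edgeR, adjusted p = 0.0190). Lower in visceral T2DM (3.28% of all genes) were 1 of 10 processing genes, 1 of 13 fibril-binding genes and 1 of 8 receptors: the procollagen proteinase Tll1 (-1.80 ± 0.52; edgeR, adjusted p = 0.0362), the matricellular protein gene Ccn2 (-1.67 ± 0.50; edgeR, adjusted p = 0.0422) and the collagen receptor kinase Ddr1 (-1.59 ± 0.46; edgeR, adjusted p = 0.0362). In DJB fat Plod2 was again higher in the visceral depot, by 3.25 ± 0.66 on the log2 scale (edgeR, adjusted p = 0.0264; 0.228% of all genes), all 18 folding genes had a value above 0, with a median of 0.31 against -0.04 over all genes, and no other gene of these lists was called.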

How the data were processed

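The deposited table holds raw counts and FPKM per gene for the 22 libraries, both made by the authors. The submitters' processing notes name cutadapt 1.9, FastQC and the build mRatBN7.2; the sources used here give no aligner, counter or strand setting. The deposited FPKM and counts come from the same counting and were used for levels and for tests. Genes with at least 1 FPKM in at least 5 libraries (14019 of 24286) were fitted in edgeR 4.0.16 (R 4.3.3): TMM scaling, 4 group means over all 22 libraries, quasi-likelihood test, two-sided, Benjamini-Hochberg adjustment, threshold 0.05. DESeq2 1.42.0 and limma 3.58.1 on log2(FPKM + 1) or log2(FPKM + 0.1) were alternatives, as were other scalings, no filter, a replicate block, a length trend removed and libraries left out. The fit was tested on simulated data. Total counts were 46824314 to 88829000 per library and the common biological coefficient of variation 0.551. The members given per library were those with the highest mean FPKM (3 fibrillar, 2 type IV, 4 other), those called, and in each contrast the member of each class with the smallest p. Of each other list, up to 3 genes with the smallest p were named. Members and lists were chosen with earlier results of these data known. Overlapping and antisense genes cannot be told apart without strand. Promoters come from RefSeq on GRCr8, and no coordinate of the deposited table was used.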

Additional observations from a re-analysis of the deposited data

Results flagged for a closer look

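In 13 of 56 sets of values (14 members in 4 groups), the highest library lay further from the nearest other than Dixon's 95% value allows. For independent, normally distributed values chance flags about 1 in 20. Here FPKM was used without a log and the members share libraries, so the count cannot be held against that rate. Subcutaneous DJB library 1 was such a library for Col3a1 (2745 FPKM, next 284), Col1a1 (2122 FPKM, next 134), Col5a2 (147 FPKM, next 35.6) and Col6a1 (438.8 FPKM, next 141). Subcutaneous T2DM library 5 was the one for Col3a1 (3868 FPKM, next 624), Col1a1 (4005 FPKM, next 382), Col5a2 (181 FPKM, next 57.7) and Col14a1 (324.1 FPKM, next 48.2). In subcutaneous T2DM library 3, Col5a3 was at 49.14 FPKM, with the next library at 12.5. In subcutaneous DJB library 4, Col9a2 was at 1.436 FPKM, with the next at 0.446. In visceral fat, Col3a1 was at 725.5 FPKM in DJB library 1 (next 321), Col14a1 at 73.23 FPKM in T2DM library 1 (next 22.7) and Col9a2 at 0.1096 FPKM in T2DM library 3 (next 0.0335).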

How the results depend on the processing

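The count of members called after bypass in visceral fat, 0 in edgeR, was 2 in DESeq2 (Col18a1, adjusted p = 0.0285, and Col27a1, adjusted p = 0.0281), and 0 to 2 with 1 library left out. In subcutaneous fat, and for the difference between depots, it was 0 under every setting, and 0 to 0 with 1 library left out. Between depots in T2DM it was 4, 3 to 6 with 1 library left out, 6 in DESeq2, and 2 (Col9a2 and Col9a3) without visceral T2DM libraries 2 and 5. Without libraries 2, 3 and 4 the members called were Col9a2, Col9a3 and Col17a1. DESeq2 added Col13a1 (-1.78, DESeq2, adjusted p = 0.0296) and Col16a1 (-1.46, DESeq2, adjusted p = 0.0382). In DJB fat the count was 0, and 1 with a length trend removed (Col8a1), 1 without libraries 2 and 5 (Col13a1), 3 in DESeq2 and 0 to 1 with 1 library left out. From counts instead of FPKM, the ratio was 0.8086 for Col6a1 to Col6a2, 0.8258 for Col5a1 to Col5a2 and 2.273 for Col4a1 to Col4a2. Col4a2 in subcutaneous fat turned to -0.0288 with a replicate block, -0.06206 in limma with 1 added and -0.09122 with 0.1 added. Col14a1 in subcutaneous fat turned to 0.1269 without T2DM library 5 (range -2.17 to 0.127), Col1a1 between depots in DJB to 0.6676 without subcutaneous DJB library 1 (range -2.44 to 0.668), and Col4a1 between depots in T2DM to -0.0003851 under TPM scaling. The cause of these changes was not tested. Col1a1 between depots in T2DM was not called with the replicate block (-3.30, edgeR, adjusted p = 0.0773), without libraries 2 and 5 (adjusted p = 0.153), without 2, 3 and 4 (adjusted p = 0.195) or in limma (adjusted p = 0.0519 and 0.0546).

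TPM scaling moved the median of all genes by -0.26 in subcutaneous fat, 0.35 for the difference between depots, -0.47 between depots in T2DM and -0.12 in DJB. Calls over all genes in visceral fat after bypass were 658 in edgeR, 115 under TPM scaling, 237 with no filter, 186 with a length trend removed, 73 without libraries 2 and 5, 0 without 2, 3 and 4, 1 with only the groups compared, 1459 in DESeq2 and 0 in limma. Between depots in T2DM they were 1222, and 485 (TPM), 577 (only the groups compared), 454 and 797 (without 2 and 5, and 2, 3 and 4), 712 and 636 (limma) and 1964 (DESeq2). In DJB they were 185, and 110 (no filter), 286 (length trend), 7 (only the groups compared), 15 and 12 (limma) and 719 (DESeq2). The fit of only the groups compared was not run for the difference in bypass effect between depots, which uses all 4 groups. The correlations of same-numbered libraries ran from -0.167 to 0.328. The highest were similar between T2DM and DJB within a depot (0.328 and 0.266) and between depots (0.272 and 0.246). They therefore cannot tell whether equal replicate numbers mark the same rat. The replicate block gave 609 calls over all genes between depots in T2DM, 5 in DJB and 0 in visceral fat after bypass, and 3 collagen calls in T2DM.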
